A study of Mus musculus with 24 samples.

Results

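The genes described here handle zinc in the cell: the metallothioneins Mt1 and Mt2, the zinc-sensing transcription factor Mtf1, the zinc exporter Slc30a1 and the zinc importers Slc39a10 and Slc39a14. They were chosen by gene symbol, matched to the Ensembl gene identifiers of the deposited table through the mouse GRCm38 annotation. These are 6 of the 55487 genes listed, and all 6 passed the filter on low values, a normalized count of 10 or more in 6 or more libraries, which left 14541 genes for every test.

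The libraries were made from C2C12 myotubes, the multinucleated fibres that this wild-type mouse myoblast line forms in culture. All cultures were differentiated under 5 % O2 and taken at day 5. The 4 groups of 6 libraries were myotubes kept for 2 hours at 5 % O2 without stimulation (5 % CTRL), myotubes moved for 2 hours to 1 % O2 without stimulation (1 % CTRL), and myotubes electrically stimulated after the same 2 hours at 5 % O2 (5 % STIM) or at 1 % O2 (1 % STIM). The paper describes short bouts of stimulation with rests between them, and medium replaced before and after. It does not state whether unstimulated cultures had the same added time and medium changes, so stimulation includes any such difference in handling. C2C12 is 1 immortalized line in a serum-containing medium, so the replicates are cultures of that line and not animals, and neither zinc nor protein was measured in these libraries.

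Zinc entering the cytosol is bound by metallothioneins, small cysteine-rich proteins that buffer zinc and copper and react readily with oxidants. Free zinc is also sensed by MTF1, a zinc-finger factor that binds metal response elements (MREs) and drives Mt1, Mt2 and the plasma-membrane exporter gene Slc30a1, while it holds down the importer gene Slc39a10. In muscle, metallothionein transcripts are known to respond to exercise, glucocorticoids, cytokines of the IL-6 family and wasting.

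Mt1 (ENSMUSG00000031765) lies on the forward strand at chr8:94179082-94180327 and Mt2 (ENSMUSG00000031762) on the same strand at chr8:94172664-94173568 (GRCm38). Both coding sequences, taken from the GENCODE M21 transcripts ENSMUST00000034215 (Mt1) and ENSMUST00000034214 (Mt2), are shown with the cysteine codons in capitals, because the clustered cysteines are what binds the metal.
Mt1: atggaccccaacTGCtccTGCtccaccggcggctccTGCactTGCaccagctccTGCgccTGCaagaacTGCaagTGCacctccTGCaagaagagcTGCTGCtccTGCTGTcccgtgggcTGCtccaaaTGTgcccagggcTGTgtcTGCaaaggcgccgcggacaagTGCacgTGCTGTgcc
Mt2: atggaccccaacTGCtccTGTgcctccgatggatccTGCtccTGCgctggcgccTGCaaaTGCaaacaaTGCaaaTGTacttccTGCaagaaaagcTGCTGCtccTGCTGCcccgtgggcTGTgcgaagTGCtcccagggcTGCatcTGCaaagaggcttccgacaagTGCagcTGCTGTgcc
Each sequence had 183 bases and 61 codons, of which 20 (32.8%) were cysteine codons, and these stood at the same 20 positions in both genes. The sequences were identical at 145 bases (79.2%). No stretch of 75 bases was shared between the transcripts of Mt1 and Mt2, so a read of that length without errors could be assigned to one or the other.

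The promoter windows below, from RefSeq (GRCm38.p6), run from 250 bases before to 50 bases after the start annotated there. They are shown for the genes that MTF1 is known to activate, with matches to the MRE core (TGCACNC or TGCGCNC, on either strand) in capitals.
Mt1, chr8:94178839-94179138, forward strand: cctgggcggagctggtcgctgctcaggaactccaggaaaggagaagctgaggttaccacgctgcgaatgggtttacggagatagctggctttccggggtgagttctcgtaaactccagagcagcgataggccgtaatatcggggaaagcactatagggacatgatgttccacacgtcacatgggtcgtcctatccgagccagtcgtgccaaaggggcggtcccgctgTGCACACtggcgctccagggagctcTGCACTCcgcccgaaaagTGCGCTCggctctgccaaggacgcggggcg
Mt2, chr8:94172368-94172667, forward strand: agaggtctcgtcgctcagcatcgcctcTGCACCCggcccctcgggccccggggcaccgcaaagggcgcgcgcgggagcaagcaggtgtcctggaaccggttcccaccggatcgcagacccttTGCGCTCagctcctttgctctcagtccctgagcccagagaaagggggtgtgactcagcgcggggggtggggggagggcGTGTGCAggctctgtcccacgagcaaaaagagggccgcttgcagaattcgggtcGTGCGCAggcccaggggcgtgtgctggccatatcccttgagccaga
Slc30a1, chr1:191906531-191906830, forward strand: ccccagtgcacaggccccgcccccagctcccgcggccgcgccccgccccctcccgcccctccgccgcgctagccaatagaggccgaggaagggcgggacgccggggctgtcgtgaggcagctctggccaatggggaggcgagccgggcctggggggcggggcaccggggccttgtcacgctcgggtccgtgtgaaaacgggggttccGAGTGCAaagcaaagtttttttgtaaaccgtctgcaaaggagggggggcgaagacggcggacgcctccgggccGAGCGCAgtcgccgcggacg
The Mt1 window held 3 matches, all on the forward strand, and the Mt2 window held 4, with 2 on each strand. In the Slc30a1 window 2 matches were found, both on the reverse strand. Windows were given for 5 of the 6 genes, and neither the Mtf1 window nor the 2 Slc39a10 windows held a match. Of 32851 RefSeq windows of this length, 25.7% held at least 1 match, 7.11% at least 2, 1.97% at least 3 and 0.517% at least 4. The core of the hypoxia response element (ACGTG or GCGTG, either strand) was found 2 times in each of the Mt1 and Mt2 windows and 1 time in that of Slc30a1, and 1 of the Mt2 matches overlapped an MRE core. At least 1 such match was present in 43.8% of all windows and at least 2 in 20.6%. A match is a description of letters and not a measured binding site. The RefSeq start need not be that of the GENCODE transcripts shown above. Their coding sequences begin at chr8:94179311 (Mt1) and chr8:94172848 (Mt2), past the ends of the windows. The Mt2 window ends at 94172667, where the GENCODE gene begins at 94172664. For Slc39a10, the window at chr1:46853569-46853868 lies inside the GENCODE gene and that at chr1:46925727-46926026 lies outside it. Neither of these holds the GENCODE start of Slc39a10, at 46892852 on the reverse strand. Sequence beyond the windows was not searched, so the counts describe these windows only.

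The series as a whole was even in depth, with 26541858 to 28173745 reads assigned to genes per library. The size factors that the deposited counts had been divided by ran from 0.9545 to 0.9925 at 5 % O2 and from 1.017 to 1.051 at 1 % O2, so they did not overlap between the O2 levels. Among all genes tested, 49.05% of those called between 1 % and 5 % CTRL were higher, against 62.67% when the libraries were rescaled to the same total. For the stimulated myotubes the shares were 50.44% and 63.21%, and for stimulation they were 44.04% and 62.15% at 5 % O2 and 51.4% and 62.36% at 1 % O2. Summed over 9 myotube markers, the normalized count ranged from 470210 to 516770 in 5 % CTRL and 416110 to 454700 in 1 % CTRL, and with stimulation from 422540 to 489530 at 5 % O2 and 407970 to 453190 at 1 % O2. Summed over 6 myoblast and cycling markers, it ranged from 3159 to 3540 and from 3588 to 5569 in the unstimulated groups, and from 3449 to 4022 and from 3871 to 4697 in the stimulated ones. Of 8 markers of blood, vessel, fat and skin cells, only Krt14 passed the filter, and the list summed to 58.5 at the lowest and 123 at the highest, with Plin1 at 0 in all libraries. The ranges of both marker sums did not overlap between 5 % and 1 % CTRL but overlapped between 5 % and 1 % STIM. Within the myotube list, 6 of 9 genes were called lower in 1 % than in 5 % CTRL and none higher. Of all tested genes, 30.5% were called lower there. Myh3 fell from a mean of 139000 to 105590 (log2 difference of -0.40), while Acta1 (161580 and 163670), Des and Mymk were not called. Within the myoblast list, Top2a, Pax7 and Myf5 were higher in 1 % than in 5 % CTRL (log2 differences of 0.74, 0.69 and 0.63), while Ccnb1 and Id3 were lower (-0.50 and -1.22). Mki67 was not called (-0.04). The part of these markers in the results below was not tested. In bulk RNA, fewer cells of a type and less RNA per cell cannot be told apart.

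Lowering O2 from 5 % to 1 % for 2 hours was accompanied by lower transcript levels of Mt1, Mt2, Mtf1, Slc30a1 and Slc39a14 and by a higher level of Slc39a10, with and without stimulation. The exporter Slc30a1 showed the widest change of the 6 genes, which was 70.6% lower without stimulation and 71.7% lower with it. Slc39a10 was 2.21-fold and 1.85-fold higher. All 6 genes passed the test in each of these comparisons, where 59.9% of all tested genes were called without stimulation (29.4% higher and 30.5% lower) and 57.4% with it (29.0% higher and 28.4% lower). Their libraries also did not overlap between 5 % and 1 % O2, which held for 38.2% and 37.3% of all tested genes. The median log2 difference of the 6 genes was -0.458 without stimulation and -0.62 with it, beside medians of 0.0015 and -0.000827 over all genes tested. A gene was called where the Benjamini-Hochberg adjusted p of limma, fitted on log2(normalized count + 1) over all 24 libraries, was under 0.05.

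**Figure D1:**
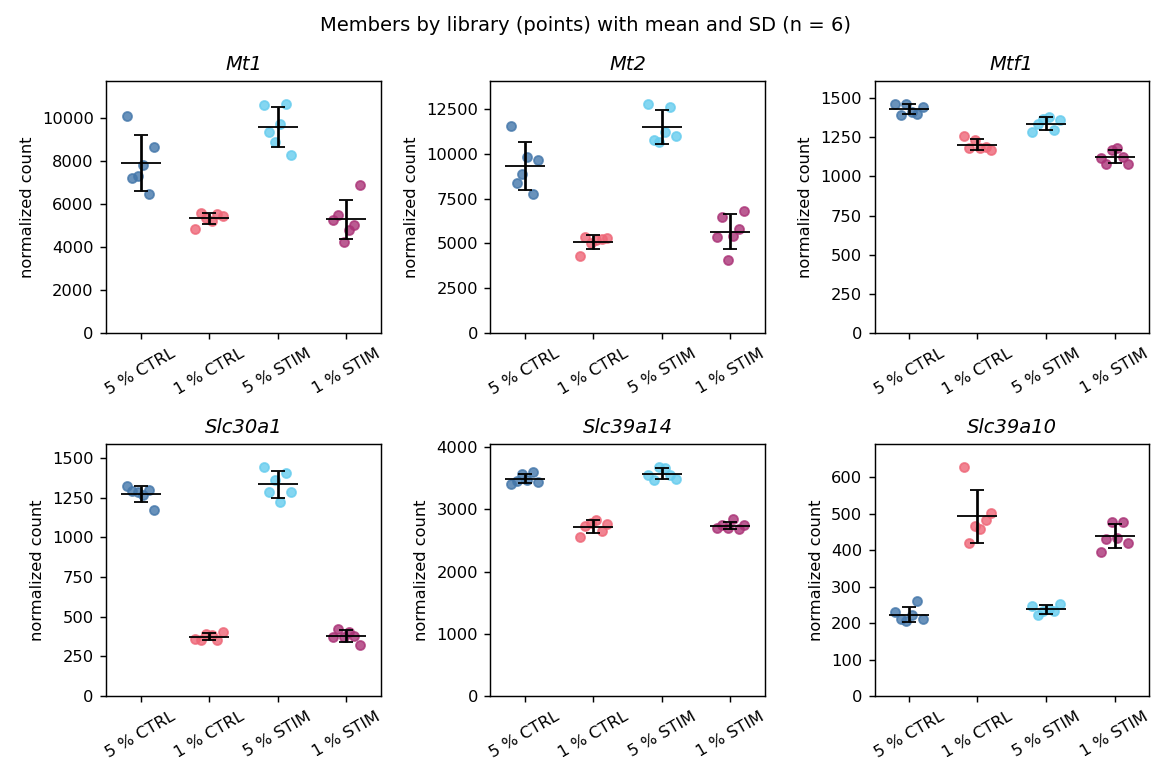
Normalized count (vertical axes, from 0) of the 6 genes in each of the 24 libraries (points) with the group mean and SD (n = 6). For every gene the points at 5 % O2 lie apart from those at 1 % O2 under the same stimulation, below them for Slc39a10 and above them for the others.

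The metallothioneins were the most abundant of the 6 transcripts. Per kilobase of annotated exon, the mean normalized count in 5 % CTRL was 15860 for Mt2, which ranked 50 of 14527 genes with a length, and 6358 for Mt1, which ranked 158. The Mt1 annotation is 1246 bases long because it includes sequence outside the transcript shown above, so levels were also taken per kilobase of the transcripts shown, of 549 bases for Mt1 and 511 for Mt2. On that scale the 5 % CTRL means were 14430 ± 2350 for Mt1 and 18250 ± 2590 for Mt2 (SD, n = 6). In 1 % CTRL they were 9718 ± 489 and 9927 ± 774.

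Mt1, which encodes a zinc- and copper-binding metallothionein, had a lowest, median and highest normalized count of 6453, 7563 and 10081 in 5 % CTRL and of 4864, 5396 and 5603 in 1 % CTRL. In 5 % STIM these were 8278, 9543 and 10657, and in 1 % STIM 4263, 5146 and 6899. The 1 % libraries all lay below the 5 % libraries under the same stimulation, and 1 % CTRL was the group with the narrowest spread. The means were 7923 ± 1288, 5335 ± 268, 9589 ± 946 and 5295 ± 893 in 5 % CTRL, 1 % CTRL, 5 % STIM and 1 % STIM (SD, n = 6). Lower O2 gave a log2 difference of -0.56 ± 0.104 (SE) without stimulation (limma, adjusted p = 8.91e-05) and of -0.87 ± 0.104 with it (adjusted p = 3.17e-07). In the order of the means, 5 % STIM and 5 % CTRL overlapped, as did 1 % CTRL and 1 % STIM.

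Mt2, the second of the 2 metallothioneins expressed here, ranged from 7751 to 11514 with a median of 9274 in 5 % CTRL and from 4304 to 5339 with a median of 5232 in 1 % CTRL. With stimulation it ranged from 10648 to 12763 (median 11073) at 5 % O2 and from 4057 to 6798 (median 5615) at 1 % O2. No library at 1 % O2 reached the lowest library at 5 % O2. The means were 9324 ± 1324 in 5 % CTRL and 5073 ± 395 in 1 % CTRL (SD, n = 6), the second 45.6% lower, with a log2 difference of -0.87 ± 0.106 (limma, adjusted p = 3.44e-07). The stimulated means were 11478 ± 943 and 5651 ± 965, the second 50.8% lower, with a log2 difference of -1.04 ± 0.106 (adjusted p = 2.9e-08). Of the exon bases of Mt2, 73.5% lie opposite the antisense gene Gm45774, and the reads were counted with RSEM at its default settings, which do not use strand, so reads of the pair cannot be told apart there. Gm45774 itself was counted at 22.3 ± 3.44, 10.3 ± 3.13, 34.7 ± 7.77 and 9.53 ± 4.45 in 5 % CTRL, 1 % CTRL, 5 % STIM and 1 % STIM, below 1% of Mt2 in each group mean.

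The genes Mt3 and Mt4 of the same family did not pass the filter, with 5.78 as their highest normalized count in any library. The ratio of the Mt2 to the Mt1 normalized count, which does not depend on the scaling of a library, was 1.18 ± 0.0512 in 5 % CTRL and 0.95 ± 0.0382 in 1 % CTRL, against 1.20 ± 0.0651 in 5 % STIM and 1.07 ± 0.0955 in 1 % STIM (SD, n = 6). In 5 % CTRL the ratio ran from 1.11 to 1.25 and in 1 % CTRL from 0.885 to 0.997, so these libraries did not overlap. With stimulation the range was 1.15 to 1.32 at 5 % O2 and 0.952 to 1.17 at 1 % O2, which overlap. These ratios are given as a description without a test. Together the pair took up 0.0613% of the assigned reads in 5 % CTRL and 0.0392% in 1 % CTRL, and 0.0766% and 0.0418% in the stimulated groups at 5 % and 1 % O2, as group means.

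**Figure D2:**
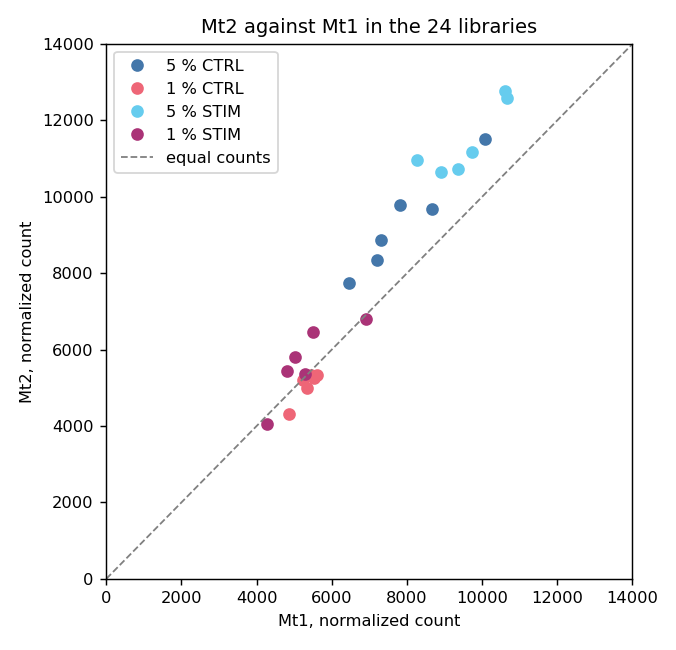
Normalized count of Mt2 (vertical axis) against that of Mt1 (horizontal axis) in the 24 libraries, coloured by group, with a dashed line at equal counts. The 5 % CTRL and 5 % STIM libraries lie above the line with ratios of 1.11 to 1.32, and the 1 % CTRL libraries lie just below it with ratios of 0.885 to 0.997.

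Mtf1, which encodes the zinc sensor, lies at chr4:124802104-124849800 on the forward strand (ENSMUSG00000028890). Its normalized count had a lowest, median and highest value of 1391, 1427 and 1463 in 5 % CTRL and of 1168, 1186 and 1258 in 1 % CTRL. With stimulation these were 1283, 1350 and 1382 at 5 % O2 and 1080, 1121 and 1182 at 1 % O2. The order of the levels was 5 % CTRL, 5 % STIM, 1 % CTRL and 1 % STIM, and of the neighbours in it only the 1 % groups overlapped. The means of 1428 ± 31.8 in 5 % CTRL and 1202 ± 34.6 in 1 % CTRL (SD, n = 6) gave a log2 difference of -0.25 ± 0.0322 (limma, adjusted p = 3.81e-08). With stimulation the means were 1338 ± 39.7 and 1126 ± 42.4 and the log2 difference was -0.25 ± 0.0322 (adjusted p = 4.31e-08). At 15.8% and 15.9%, the decrease was the smallest among the 5 genes that fell. Of its exon bases, 8.09% overlap the opposite-strand gene 1110065P20Rik.

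Slc30a1 (ENSMUSG00000037434, chr1:191906767-191913247, forward strand) encodes ZnT1, the exporter that carries zinc out of the cell across the plasma membrane. Without stimulation its lowest, median and highest normalized counts were 1172, 1289 and 1323 at 5 % O2 and 352, 372 and 406 at 1 % O2. With stimulation they were 1223, 1325 and 1446 at 5 % O2 and 319, 375 and 425 at 1 % O2. Every library at 5 % O2 thus held more than 2-fold the count of any library at 1 % O2, and stimulated and unstimulated libraries overlapped at each O2 level. The unstimulated means were 1274 ± 53.0 and 375 ± 22.8 (SD, n = 6), with a log2 difference of -1.76 ± 0.0542 (limma, adjusted p = 4.97e-24). The stimulated means were 1335 ± 84.1 and 378 ± 35.7, with a log2 difference of -1.82 ± 0.0542 (adjusted p = 2.15e-24). As a description, the fall was the 48th largest of 14541 genes without stimulation and the 61st largest with it. Among the 11045 genes with a group mean of at least 100, it ranked 18th and 26th. Of its exon bases, 8.92% overlap the opposite-strand gene 1700034H15Rik.

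Slc39a10 (ENSMUSG00000025986, chr1:46807544-46892852, reverse strand) encodes ZIP10, an importer of zinc at the plasma membrane. Its normalized count had a lowest, median and highest value of 205, 217 and 260 in 5 % CTRL and of 420, 475 and 629 in 1 % CTRL. The stimulated libraries had 221, 236 and 253 at 5 % O2 and 396, 432 and 478 at 1 % O2. All 1 % libraries lay above all 5 % libraries, and the highest of the 1 % CTRL libraries, replicate 1, was also the library with the lowest Mt1 and Mt2 of that group. Without that library the log2 difference in unstimulated myotubes was 1.06 for Slc39a10, -0.53 for Mt1 and -0.82 for Mt2, and all 3 remained called. The means of 223 ± 20.1 and 493 ± 72.2 (SD, n = 6) gave a log2 difference of 1.13 ± 0.0727 without stimulation (limma, adjusted p = 2.46e-15). With stimulation the means were 238 ± 11.3 and 439 ± 32.7 and the log2 difference was 0.88 ± 0.0727 (adjusted p = 1.88e-12). Per kilobase of exon, Slc39a10 rose from 36.7 in 5 % CTRL to 80.9 ± 11.8 in 1 % CTRL, while Slc30a1 fell from 243 to 71.5 ± 4.34 (SD, n = 6). The mean of the importer was thus above that of the exporter in 1 % CTRL, by less than the SD of Slc39a10. In 1 % STIM the means were level, at 72.0 per kilobase for Slc39a10 and 72.1 for Slc30a1.

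Slc39a14 (ENSMUSG00000022094, chr14:70303469-70351425, reverse strand) encodes ZIP14, which imports zinc as well as manganese and non-transferrin-bound iron. In 5 % CTRL its normalized count had a lowest, median and highest value of 3413, 3462 and 3591, and in 1 % CTRL of 2560, 2753 and 2833. The corresponding stimulated values were 3469, 3555 and 3684 at 5 % O2 and 2688, 2722 and 2845 at 1 % O2. The groups at 1 % O2 lay below those at 5 % O2 with a wide gap between them and little spread within each. Its mean was 1.28-fold lower at 1 % O2 without stimulation, falling from 3489 ± 71.3 to 2721 ± 99.9 (SD, n = 6), with a log2 difference of -0.36 ± 0.0277 (limma, adjusted p = 2.68e-13). With stimulation it was 1.3-fold lower, falling from 3569 ± 89.0 to 2738 ± 59.7, with a log2 difference of -0.38 ± 0.0277 (adjusted p = 6.92e-14). The 2 importers therefore moved in opposite directions with O2.

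**Figure D3:**
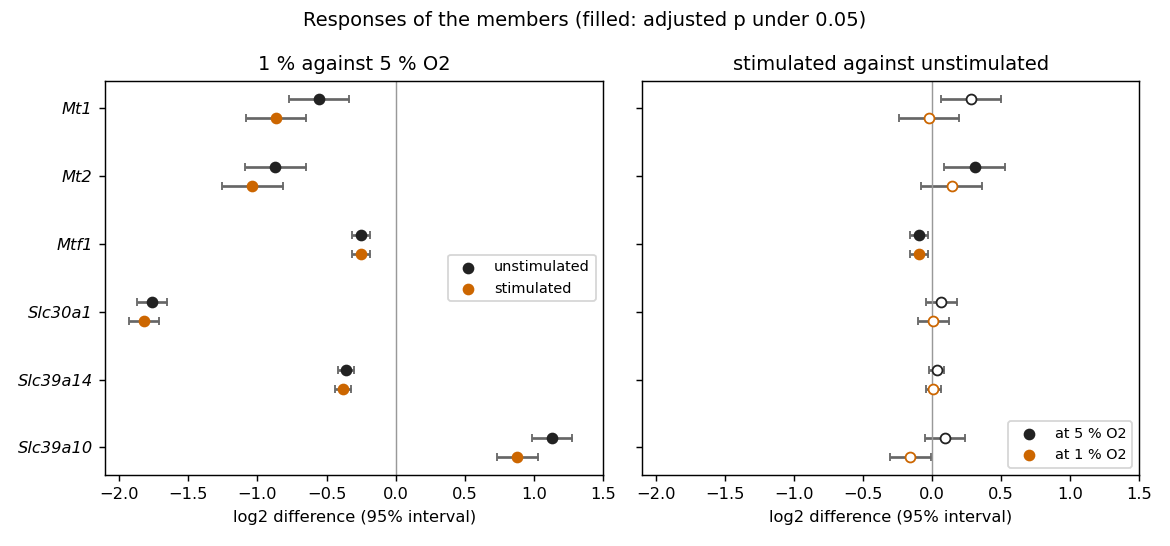
Log2 difference (horizontal axis) of the 6 genes with 95% intervals, for 1 % against 5 % O2 on the left and for stimulated against unstimulated myotubes on the right. Filled points have a limma adjusted p under 0.05. The O2 differences run from -1.82 for Slc30a1 to 1.13 for Slc39a10, and the stimulation differences lie between -0.16 and 0.31.

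For each of the 6 genes the differences with stimulation were smaller in size than those with O2. At 5 % O2, Mt2 rose and Mtf1 fell, so that 2 of the 6 genes were called beside 21.4% of all tested genes (9.44% higher and 12.0% lower). Mt2 rose by 23.1%, with a log2 difference of 0.31 ± 0.106 (limma, adjusted p = 0.0432), and its stimulated and unstimulated libraries overlapped. Mtf1 fell by 6.28%, with a log2 difference of -0.09 ± 0.0322 (adjusted p = 0.0341). This call was lost with libraries rescaled to the same total (-0.06, adjusted p = 0.161) and without the filter on low values (adjusted p = 0.0806), within a range of 0.027 to 0.161 over 12 alternatives. It was the only one of the 6 whose libraries did not overlap, which held for 11.1% of all tested genes. Mt1 had a log2 difference of 0.28 with a 95% interval of 0.07 to 0.50 and did not pass the test (adjusted p = 0.0569). The call of Mt2 was lost when the trend with gene length was removed (log2 difference 0.22, adjusted p = 0.0837) and without the filter on low values (adjusted p = 0.0783), and over all 12 alternatives its adjusted p ran from 0.0173 to 0.0837. Genes with 300 to 700 bases of exon, the band of Mt2, had a median log2 difference of 0.061 in this comparison (n = 341), against -0.0068 for genes of 1500 to 6000 bases.

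At 1 % O2, Mtf1 alone was called after stimulation, beside 22.3% of all tested genes (11.5% higher and 10.8% lower). Its log2 difference was -0.09 ± 0.0322 (limma, adjusted p = 0.0314), a fall of 6.32%, and its adjusted p ran from 0.00423 to 0.0853 over the 12 alternatives. Without 1 % CTRL replicate 1 the call was lost (adjusted p = 0.0717). None of the 6 genes had non-overlapping libraries, beside 11.2% of all tested genes. The log2 difference was -0.03 for Mt1, 0.14 for Mt2, 0.01 for Slc30a1, -0.16 for Slc39a10 and 0.01 for Slc39a14. The 95% interval reached from -0.24 to 0.19 for Mt1 and from -0.08 to 0.36 for Mt2, so changes of the size seen at 5 % O2 lay outside the first and inside the second. The median over the 6 genes was 0.0796 at 5 % O2 and -0.00811 at 1 % O2, beside -0.00764 and -0.00314 over all genes.

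Whether stimulation acted differently at the 2 O2 levels was tested as an interaction, the stimulation difference at 1 % minus that at 5 % O2. None of the 6 genes was called by limma, against 11.3% of all tested genes, and 2 of them (Mt1 and Slc39a10) had an unadjusted p under 0.05. None was called by edgeR, DESeq2 or limma voom either. For Mt1 the interaction was -0.31 ± 0.147 on the log2 scale, with a 95% interval of -0.62 to -0.0031 (adjusted p = 0.198). For Slc39a10 it was -0.25 ± 0.103, with an interval of -0.46 to -0.04 (adjusted p = 0.116). For Mt2 the interval was -0.48 to 0.15, for Slc30a1 -0.21 to 0.10, for Mtf1 -0.09 to 0.09 and for Slc39a14 -0.10 to 0.06. The O2 comparisons with and without stimulation use separate libraries, but each shares libraries with the stimulation comparisons.

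The genes nearest in pattern over the 4 groups are listed as a description. The nearest of many genes over 4 means are close by selection, and no link between them was tested. Likeness was measured as the root mean square of the differences between the centred log2 group means (n = 4 groups of 6 libraries), among 10794 other genes with a mean of at least 100 for members with a span over the groups of at least 0.5. Nearest to Mt1 were Smim3 at 0.0203, Cx3cl1 at 0.0404 and Tgfb1 at 0.0414. Mt2 was closest to Ccn4 at 0.0241, Scel at 0.0451 and Rab10os at 0.0515, and the distance between Mt1 and Mt2 themselves was 0.135. For Slc30a1 the nearest genes were Egr2 at 0.0418, Tmem200a at 0.0773 and Scara5 at 0.125. The pattern of Slc39a10 had closer matches, namely Epb41l5 at 0.00832, Ankzf1 at 0.0189 and Slc41a1 at 0.023. The spans of Mtf1 (0.343) and Slc39a14 (0.392) were below the limit, and the distance between this pair was 0.084.

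The other zinc exporters that were tested had smaller O2 differences than Slc30a1. Of the 9 other SLC30 genes, 7 were tested, and 1 was higher and 4 lower at 1 % O2 without stimulation, with a median log2 difference of -0.119. Of all tested genes, 59.9% were called in this comparison and 57.4% in the stimulated one. Slc30a7 (-0.33, adjusted p = 2.51e-09) and Slc30a5 (-0.31, adjusted p = 1.02e-07), which load zinc into the secretory pathway, were lower, as was Slc30a4 (-0.12, adjusted p = 0.00299). The Slc30a4 call was lost when libraries were rescaled to the same total (-0.04, adjusted p = 0.326). Named after their values were seen, the other called genes were Slc30a3 (-0.63, adjusted p = 0.0164), at a mean of 24.2 in 5 % CTRL, and Slc30a9 (0.10, adjusted p = 0.0238). With stimulation, 4 of the 7 were lower and none higher, namely Slc30a3 with a mean of 13.1 against 27.6 (adjusted p = 0.000296), Slc30a7 at -0.23, Slc30a5 at -0.19 and Slc30a4 at -0.08 (adjusted p = 0.0462). The Slc30a4 call was lost without the filter (adjusted p = 0.0846), with the replicate number as a block (0.0504) and with equal totals (0.838). None was called for stimulation at 5 % O2, while Slc30a5 (0.17) and Slc30a4 (0.10) were higher after stimulation at 1 % O2. These stand beside 21.4% and 22.3% of all tested genes called at 5 % and 1 % O2. Slc30a8 and Slc30a10 were not tested, with no library above 2.03.

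Among the 12 other SLC39 importers, 8 were tested, and 2 were higher and 3 lower at 1 % O2 without stimulation. That share is near the 59.9% of all tested genes called, and 57.4% were called with stimulation. Slc39a11 (0.38, adjusted p = 6.17e-07) and Slc39a8 (0.33, adjusted p = 0.00434), which carries manganese and cadmium as well as zinc, were higher. Slc39a9 was lower (-0.35, adjusted p = 7.04e-12), as were Slc39a6 (-0.29, adjusted p = 1.99e-09) and Slc39a7 (-0.14, adjusted p = 0.00064), the importer that releases zinc from the endoplasmic reticulum. With stimulation, 1 was higher (Slc39a11, 0.32) and 2 were lower (Slc39a9, -0.26, and Slc39a7, -0.14), of which Slc39a7 was not called with libraries rescaled to the same total (-0.07, adjusted p = 0.0753). In these 8 genes the median was 0.0269 without stimulation and -0.0181 with it. Stimulation raised Slc39a8 at 5 % O2 (0.40, adjusted p = 0.00286). It lowered Slc39a13 at both O2 levels (-0.11 and -0.12) and Slc39a6 at 5 % O2 (-0.11), while Slc39a6 was higher after stimulation at 1 % O2 (0.15). With equal totals the calls at 5 % O2 were lost for Slc39a13 (-0.07, adjusted p = 0.101) and Slc39a6 (-0.08, adjusted p = 0.0586). Slc39a2, Slc39a4, Slc39a5 and Slc39a12 did not pass the filter. Slc30a1 and Slc39a10 thus had the lowest and the highest O2 difference, without stimulation, of the 18 zinc transporter genes tested.

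**Figure D4:**
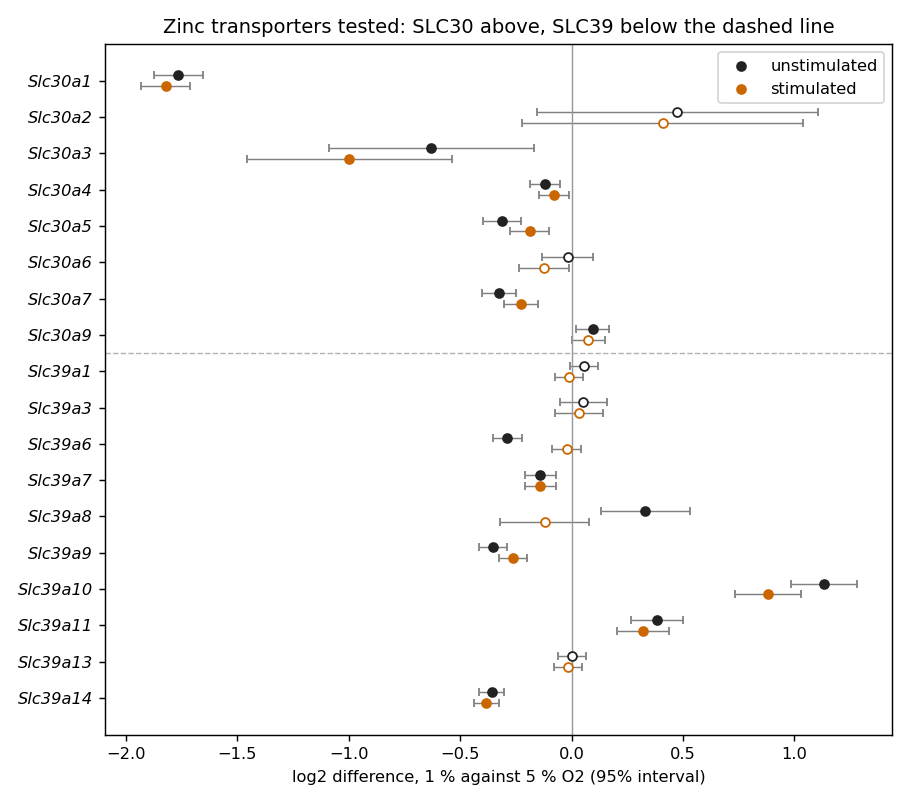
Log2 difference between 1 % and 5 % O2 (horizontal axis) with 95% intervals for the 18 tested zinc transporter genes, SLC30 above and SLC39 below the dashed line, without (black) and with (orange) stimulation. Filled points have a limma adjusted p under 0.05. Slc30a1 lies at -1.76 and -1.82 and Slc39a10 at 1.13 and 0.88, and most others lie between -0.4 and 0.4.

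Of 6 genes linked to MTF1 in other systems, 1 was higher and 3 were lower at 1 % O2 in each stimulation state, a share near the 59.9% and 57.4% of all tested genes called. Without stimulation the median was -0.0531. Gclc, the catalytic subunit of the enzyme that starts glutathione synthesis, fell from 2195 ± 69.0 to 1142 ± 45.2 without stimulation (SD, n = 6), a log2 difference of -0.94 (limma, adjusted p = 4.85e-22). With stimulation its difference was -0.63 (adjusted p = 3.92e-17). Csrp1 was at -0.32 and -0.13 and the placental growth factor gene Pgf at -0.15 and -0.69. Ndrg1, which is also a known hypoxia-induced gene, was higher by 1.75 and 0.54. Selenoh and Selenow did not pass the test in any of these comparisons.

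Other pathways known to act on metallothionein genes were counted in the same fit. Of 5 tested glucocorticoid-responsive genes, 4 were lower and 1 was higher at 1 % O2 in each stimulation state, with Sgk1 at -0.76 and -0.65, Tsc22d3 at -0.32 and -0.54, and Per1 at 0.74 and 0.68. Of all tested genes, 59.9% and 57.4% were called in these O2 comparisons. After stimulation, 3 of the 5 were higher and none lower at each O2 level, beside 21.4% of all tested genes called at 5 % O2 and 22.3% at 1 % O2. Sgk1 rose by 0.76 at 5 % O2 and by 0.87 at 1 % O2. Of 12 IL-6 and STAT3 genes, 4 were higher and 5 lower at 1 % O2 without stimulation, and 1 was higher and 9 were lower with it, beside 59.9% and 57.4% of all genes called. Il6, Bcl3 and Lif had the largest differences with stimulation, at -2.52, -1.63 and -1.49. Without it they were at -2.1, -0.07 (not called) and 0.17. Socs3 was lower at -0.28 without and -0.87 with stimulation, while Pim1, a kinase gene induced by STAT3, was higher at 0.57 and 1.25. Osmr, the oncostatin M receptor gene, was at -0.68 and -0.75 and the shared receptor gene Il6st at -0.36 and -0.25. Stimulation at 5 % O2 raised 7 and lowered 1 of the 12, with Il6 at 2.07 from a mean of 19.1 to 82.8. At 1 % O2 it raised 4 and lowered 2. The shares of all tested genes called for stimulation were 21.4% at 5 % O2 and 22.3% at 1 % O2. The parts of these lists in the metallothionein results were not tested.

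Copper is the other metal that metallothioneins bind. Of 12 copper-handling genes, 4 were higher and 2 lower at 1 % O2 without stimulation, and 3 were higher and 2 lower with it, no more than the 59.9% and 57.4% of all genes called. The transporter gene Slc31a2 had 173 to 211 normalized counts in 5 % CTRL and 303 to 369 in 1 % CTRL, a log2 difference of 0.80 (limma, adjusted p = 1.29e-12), and its difference with stimulation was 0.74. The mitochondrial copper chaperone gene Sco1 was at -0.51 and -0.35 and the ceruloplasmin gene Cp at -0.32 and -0.29. Named after their values were seen, the other higher genes were Atp7b, Commd1 (0.24) and Ccs (0.14) without stimulation and Atp7b and Atp7a (0.17) with it. Atp7b was barely detected at 5 % O2, with means of 2.07 in 5 % CTRL and 17.6 in 1 % CTRL, and of 1.19 and 8.08 with stimulation. With stimulation none was higher and 2 were lower at 5 % O2, and 1 was higher and 1 lower at 1 % O2, beside 21.4% and 22.3% of all genes called. For the interaction of O2 and stimulation none of the 12 was called by limma.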

How the data were processed

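Poly(A) RNA of 24 C2C12 cultures in 4 groups of 6 was sequenced as stranded, single-end libraries. The authors aligned the reads to GRCm38 and counted them per gene (FastQC 0.11.7, STAR 2.5.4b and RSEM 1.3.0 in the submitters' processing notes), and the deposited values are a signal, gene counts divided by a size factor for each library. All 24 columns gave whole reads to within 0.01 read (100% of values) once multiplied back. For 2 of them the step was so close to 1 that this rests on less evidence. A deposited table of the authors' own comparisons (log2 fold changes, F, p, adjusted p and calls) was not used.

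Genes with at least 10 in at least 6 libraries (14541 of 55487) were tested on log2(normalized count + 1) with limma 3.58.1 (R 4.3.3, trend and robust) all 4 groups being fitted together, and p-values were adjusted over all 14541 genes by the Benjamini-Hochberg method (threshold 0.05). A fold change on this scale understates the change of low genes. The script was tested on simulated data. Symbols, positions and exon lengths came from GENCODE M21, which held 55227 of the identifiers (99.5%), and promoters came from RefSeq. Members and gene lists were chosen with earlier results of these data known. The 6 members were always named, and of each list up to 3 called genes of largest difference per comparison with a mean of at least 50, as well as the 3 genes of most similar pattern. Further genes of the lists were named to complete a count, after their values were seen. p-values measure the spread between cultures of 1 line. The alternatives were a pseudocount of 10, no filter, a mean of at least 50, a replicate block, a threshold of 0.01, the compared groups alone, equal totals, limma voom, edgeR 4.0.16 and DESeq2 1.42.0 on the recovered reads, library weights, removal of the length trend, and the fit without 1 % CTRL replicate 1. The ranges over 12 alternatives leave out the threshold of 0.01, which changes no value. Library pairs within a group differed beyond sampling noise (chi-square per gene of 2.54 to 21.4 over 60 pairs).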

Additional observations from a re-analysis of the deposited data

Results flagged for a closer look

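In 1 % CTRL, Mt2 of replicate 1 stood at 4304, apart from the other 5 libraries at 5005 to 5339 (gap of 0.677 of the range). In 5 % CTRL, Slc30a1 of replicate 6 stood at 1172, apart from the others at 1270 to 1323 (0.646 of the range). These were 2 of the 24 groups of libraries examined, and chance alone marks about 1 in 20.

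None of the 6 zinc genes responded to stimulation in a way that passed the test for a difference between the O2 levels, while several genes of the other lists did, among them those that follow. On the log2 scale the response at 1 % O2 minus that at 5 % O2 was 0.267 for Slc39a6 (limma, adjusted p = 0.000109) and -0.452 for Slc39a8 (adjusted p = 0.0308, and 0.0656 without the filter on low values, which ends that call). Among the genes linked to MTF1 it was -1.21 for Ndrg1 (adjusted p = 1.54e-20), -0.533 for Pgf (adjusted p = 7.73e-06) and 0.312 for Gclc (adjusted p = 2.44e-05). For the IL-6 and STAT3 genes it was -1.65 for Lif (adjusted p = 8.79e-14), -1.55 for Bcl3 (adjusted p = 1.57e-06) and -1.08 for Junb (adjusted p = 0.0214). Of that list of 12, 5 were called lower and 2 higher, beside 11.3% of all tested genes called. The higher ones were Pim1 (0.682, limma, adjusted p = 0.000123) and Stat3 (0.128, adjusted p = 0.018). The same difference in response was -0.216 for Tsc22d3 (adjusted p = 0.00241) and 0.16 for the embryonic myosin gene Myh3 (adjusted p = 0.033). The Myh3 call was lost without the filter (0.0872) and with the length trend removed (0.0624).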

How the results depend on the processing

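All 12 O2 differences of the 6 genes kept their direction and their call in each of the 12 alternatives. Slc30a1 ran from -1.77 to -1.68 without stimulation and from -1.83 to -1.75 with it, Slc39a10 from 1.06 to 1.21 and from 0.86 to 0.95, and Mt1 from -0.59 to -0.48 and from -0.87 to -0.80. The calls for stimulation rested on small differences. At 5 % O2, where 2 of the 6 were called, the number was 0 without the filter and at an adjusted p under 0.01, and 1 with the length trend removed. At 1 % O2, where 1 was called, it was 0 without the filter, with the compared groups alone, with equal totals, without 1 % CTRL replicate 1 and at an adjusted p under 0.01. Of all genes tested, 1944 were called for stimulation at 5 % O2 and 830 for the interaction at an adjusted p under 0.01, against 3115 and 1645 under 0.05. Mt1 was called at 5 % O2 with a mean of at least 50 (adjusted p = 0.0488), equal totals (0.0388), DESeq2 (0.0477) and library weights (0.0245), within a range of 0.0245 to 0.101. Differences near 0 changed sign, none of them called: for stimulation at 1 % O2, Slc39a14 was at -0.001708 with library weights, -0.01633 with the length trend removed and -0.007767 without 1 % CTRL replicate 1, Slc30a1 at -0.004094 without that library and Mt1 at 0.0002042 with the length trend removed. The interaction of Mtf1 was 0.006543 with library weights and 0.0127 without that library. The causes were not tested. With the replicate number as a block, 1 of the 6 was called at 5 % O2, Mt2 being lost (adjusted p = 0.0557). Libraries of the same number showed no clear tendency to deviate together (correlations of -0.148 to 0.155 over 36 pairs, 2 of them over 0.1, and 7 of 24 libraries closest to their own number). Pairs of different numbers ran from -0.244 to 0.343 over 180 pairs. The numbers were therefore not used as pairs in the main fit, though these correlations cannot exclude a pairing.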
